A study of Mus musculus with 4 samples.

Results

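TNFSF13B (BAFF) and TNFSF13 (APRIL) are secreted ligands of the TNF superfamily, and TNFRSF13C (BAFF receptor), TNFRSF13B (TACI) and TNFRSF17 (BCMA) are the receptors that bind them. These 5 genes, of 33538 human genes in the count tables, were chosen by name as the 2 ligands and 3 receptors of 1 signalling system. They were followed in barcodes with over 50% of their UMIs on human genes, a UMI (unique molecular identifier) being the tag of 1 captured transcript molecule. The questions were which cells carried each ligand, how the receptors differed between B cells and plasma cells, and how both differed between libraries.

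BAFF is made largely by myeloid cells and keeps mature B cells alive through the BAFF receptor, which releases the kinase NIK (MAP3K14) from TRAF3 and so turns on the non-canonical NF-kB pathway. TACI binds both ligands and takes part in class switching and in limiting the number of B cells. BCMA appears as B cells become antibody-secreting cells, binds APRIL more tightly than BAFF and supports plasma cell survival, and APRIL also attaches to heparan sulfate proteoglycans such as syndecan-1 (SDC1).

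The study sorted live human CD45+ cells from humanised (huNSG-SGM3) mice and sequenced them with droplet-based 3' scRNAseq in 1 sequencing run. Naive mice had no surgery, sham mice had a laminectomy at T9, and injured mice had a contusive spinal cord injury (SCI) at T9. Blood was drawn by cardiac puncture from all 3 groups and its red cells were lysed. The T8-T10 cord segment was taken from injured mice, digested with papain and DNase I, and enriched for human CD45+ cells on magnetic beads. Tissue and processing therefore cannot be told apart where cord is compared with blood. The operated mice were sampled 7 days after surgery, and every library is labelled with an age of 15 weeks, whereas the paper puts surgery at 15 weeks after engraftment.

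All groups shared the host genotype, which joins the alleles Prkdcscid and IL2rgtm1Wjl on NOD.Cg with the transgene Tg(CMV-IL3,CSF2,KITLG)1Eav of the line MloySzJ, in which a CMV promoter drives human IL-3, GM-CSF and SCF and the host lacks its own T, B and NK cells but keeps mouse myeloid cells. All were irradiated as pups and engrafted with CD34+ stem cells from human cord blood, so that human lymphocytes met human cytokines from a transgene and host cytokines from mouse tissue. Naive and sham hosts were male, whereas cells from male and female hosts were pooled after SCI, and each library pooled cells from several animals. With 1 library per group, library and condition cannot be told apart, nor can the sex of the hosts where SCI is compared with naive or sham, no test between groups was possible, and every difference below compares libraries without a replicate check.

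Naive, sham and SCI blood and SCI cord held 34161760, 36007208, 36487994 and 4206461 UMIs over both species, in 8124, 6962, 7513 and 231 barcodes. Of these barcodes, 6713, 4972, 6283 and 138 were human by the rule above, and 6318, 4642, 5933 and 118 cells were kept after filters on quality and doublets. A kept cell had a median of 3697, 5230, 4655 and 9331 human UMIs, so depth per cell was lowest in naive blood and highest in cord. The libraries shared few barcode sequences, with 6 between naive and sham blood, 10 between naive and SCI blood, 4 between sham and SCI blood, 1 between SCI blood and cord, and 0 between cord and the naive or sham library. Gene names and identifiers are those of the count tables (build hg38), namely TNFSF13B ENSG00000102524, TNFSF13 ENSG00000161955, TNFRSF13C ENSG00000159958, TNFRSF13B ENSG00000240505 and TNFRSF17 ENSG00000048462.

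Cells were clustered with the members and 44 other pathway genes held out, and clusters were named as resembling a type from marker lists. B-like cells numbered 1272, 568, 940 and 9 in naive blood, sham blood, SCI blood and cord (20.1%, 12.2%, 15.8% and 7.63% of cells), in 3 clusters called here by their leading genes TCL1A, SSPN and MPP6. Plasma-like cells numbered 379, 2, 4 and 2 (6.0%, 0.0431%, 0.0674% and 1.69%), and monocyte-like cells 139, 86, 18 and 7 (2.20%, 1.85%, 0.303% and 5.93%). Naive blood therefore stood apart by its plasma-like cells, and SCI blood had the lowest share of monocyte-like cells.

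In naive blood the plasma-like name was borne out by its list, with UMIs of 10 of 10 markers, a summed level of 24332 CPM and JCHAIN highest at 18093 CPM. Levels are in CPM, the UMIs of a gene summed over the cells of a class and scaled to a common total of human UMIs, with ribosomal and mitochondrial genes left out. The few cells of that cluster elsewhere were unlike these. In sham blood they had 7 of 10 plasma markers (3104 CPM, JCHAIN 2215 CPM) with SDC1, PRDM1 and TXNDC5 at 0 and 10 of 10 B markers at 3888 CPM, of which MS4A1 was at 1311 CPM against 61.6 CPM in naive plasma-like cells. In SCI blood they had 8 of 10 plasma markers (6859 CPM, JCHAIN 4509 CPM) with SDC1 and TXNDC5 at 0. Beside these were 6 of 6 general T markers at 1847 CPM and 8 of 10 B markers at 1806 CPM (MS4A1 570 CPM), and 2 of the 4 cells were marked as doublets. In cord they had 7 of 10 (3491 CPM, JCHAIN 2289 CPM) with SDC1, IRF4 and TXNDC5 at 0, beside 4 of 9 monocyte markers at 5829 CPM (LYZ 5203 CPM) and 8 of 10 B markers at 2420.3 CPM. Comparisons of plasma-like with B-like cells were accordingly made in naive blood only.

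B-like cells of the blood libraries had all 10 B markers, at 11154, 12243 and 11735 CPM, with MS4A1 highest at 4203, 4573 and 4333 CPM. Monocyte-like cells had 9 of 9 monocyte markers in every library, at 81429, 70977, 61364 and 121983 CPM, with S100A9 highest at 40656, 35541, 29410 and 43155 CPM. In cord, the 2 cells of the SSPN-led B-like cluster had 0 of 10 B markers, 7 of 9 monocyte markers (10479.9 CPM, LYZ 9462 CPM) and 2 of 5 dendritic markers (4106 CPM, CLEC10A 2357 CPM, with CLEC9A, XCR1 and FLT3 at 0). The B-like name failed for these 2 cells, so cord values of B-like cells are given with and without them.

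TNFSF13, which encodes APRIL and signals to TNFRSF13B and TNFRSF17, was close to the floor of these libraries, with 5 UMIs in all. Its level over all cells was 0.0911 CPM in naive blood (95% interval 0.0110 to 0.329), 0 in sham blood (upper limit 0.147 CPM, from 3 counts), 0.0465 CPM in SCI blood (0.00118 to 0.259) and 1.89 CPM in cord (0.228 to 6.81). These and all later intervals are exact 95% intervals and cover counting error only. The naive UMIs were in 2 monocyte-like cells, the cord UMIs in 2 of the 7 monocyte-like cells (16.8 CPM, 2.04 to 60.7), and the SCI blood UMI in 1 TCL1A-led B-like cell. Cord against SCI blood gave a log2 ratio of 5.08 (1.08 to 11.2) on 2 and 1 UMIs, too few to be named a difference by the minimum of 20 counts used here, and among the blood libraries no difference was detectable at this depth. The read-through gene TNFSF12-TNFSF13, which overlaps TNFSF13, had 0 UMIs in every library, and TNFSF12, the neighbouring TWEAK ligand gene, had 965, 1178, 1400 and 139 UMIs. Whether transcripts of TNFSF13 were lost where these gene models overlap was not tested.

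TNFSF13B, the gene of the ligand that all 3 receptors bind, had 787, 830, 366 and 157 UMIs in naive, sham and SCI blood and cord. In monocyte-like cells its level was 678 CPM (621 to 739), 558 CPM (507 to 613), 377 CPM (291 to 479) and 757 CPM (608 to 930). No other class of the blood libraries came near these levels, which by CPM were highest in naive and lowest in SCI blood among the 3, whereas per 100 monocyte-like cells sham blood was highest (375, 502 and 367 UMIs). Against all other cells of the same library, the monocyte-like level was higher by a log2 ratio of 5.75 (5.54 to 5.97), 4.78 (4.58 to 4.98) and 4.75 (4.34 to 5.13) in naive, sham and SCI blood, or 53.9-fold, 27.5-fold and 26.9-fold. Of all genes, 44.0%, 43.3% and 40.3% had an absolute log2 ratio of at least 1 in these comparisons, with 13.0%, 12.2% and 19.7% higher. Counted as UMIs per cell, a scale chosen after seeing the data, the log2 ratios of TNFSF13B were larger, at 6.44, 5.85 and 6.18. Monocyte-like cells were also deeper than the library as a whole, with medians of 5994, 9332, 10329 and 19599 UMIs.

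Single monocyte-like cells carried a median of 3, 4 and 3 TNFSF13B UMIs in naive, sham and SCI blood, with at most 11, 15 and 9. UMIs of the gene were found in 121 of 139, 81 of 86, 18 of 18 and 7 of 7 monocyte-like cells, or 87.1%, 94.2%, 100% and 100%. B-like cells, which served as background, had shares of 3.30%, 5.63% and 4.36% in naive, sham and SCI blood at median depths of 3671, 5646 and 4975 UMIs. With every cell thinned to 1000 UMIs the shares were 41.0% (32.7% to 49.7%), 32.6% and 44.4% in monocyte-like and 0.629%, 0.528% and 0.745% in B-like cells. The ligand was thus found at a depth-matched share many times the background in each blood library.

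Among T-like cells, TNFSF13B was highest in the Treg-like class, named from FOXP3, CTLA4 and IL2RA among its leading genes. Its level there was 30.5 CPM (24.5 to 37.6), 52.0 CPM (44.9 to 59.9), 41.1 CPM (33.4 to 49.9) and 84.8 CPM (40.7 to 156). CD4 T-like cells had 10.2 CPM (7.70 to 13.4), 14.7 CPM (11.9 to 17.9), 13.7 CPM (10.7 to 17.1) and 67.6 CPM (34.9 to 118). In all 3 blood libraries the intervals of these classes did not overlap, and in cord they did. The Treg-like level was higher than that of CD4 T-like cells by a log2 ratio of 1.57 (1.07 to 2.09), 1.82 (1.47 to 2.19) and 1.58 (1.14 to 2.04) in naive, sham and SCI blood, or 2.97-fold, 3.54-fold and 3.00-fold, where 8.71%, 10.04% and 7.60% of all genes had an absolute log2 ratio of at least 1. Thinned to 1000 UMIs, 1.89%, 3.89% and 1.89% of Treg-like cells had a UMI of the gene, against 0.725%, 1.15% and 0.826% of CD4 T-like cells. Without thinning, 7.00%, 13.2% and 10.2% of Treg-like and 2.34%, 5.23% and 3.85% of CD4 T-like cells had one.

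In the remaining T-like classes TNFSF13B was lower or less certain. CD8 T-like cells had 13.1, 10.0 and 4.67 CPM in naive, sham and SCI blood, cytotoxic T-like cells 9.82, 7.49 and 5.71 CPM, and naive T-like cells 18.7, 13.0 and 16.6 CPM. In SCI blood the CD8 T-like level was below that of CD4 T-like cells (log2 ratio −1.52, −2.34 to −0.82), where 15.9% of all genes passed the fold. In naive and sham blood the interval of this ratio included 0. B-like cells of blood had 13.6 CPM (10.1 to 18.0), 13.9 CPM (9.56 to 19.5) and 12.9 CPM (9.37 to 17.4), close to the levels of CD4 T-like cells. Among them MPP6-led cells were above TCL1A-led cells past the fold in sham (31.7 against 12.5 CPM) and SCI blood (43.3 against 12.4 CPM). These rest on 6 and 3 MPP6-led UMIs, and both intervals of the log2 ratio included 0. Of all genes, 17.4% and 28.0% passed the fold in these comparisons. In naive blood MPP6-led cells had 1 UMI (8.51 against 14.3 CPM). Plasma-like cells of naive blood had 2.58 CPM (1.29 to 4.61), and basophil- or mast-like cells 3.65, 1.74 and 5.94 CPM in blood and 11.7 CPM in cord. Basophil- or mast-like cells of sham blood and both of these classes in naive blood had the lowest levels of their libraries among classes with at least 10 cells.

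The classes that held the TNFSF13B UMIs differed between libraries, as did the make-up of the cells. Monocyte-like cells held 66.2%, 52.0%, 18.0% and 57.3% of the gene's UMIs in naive, sham and SCI blood and cord. The 5 T-like classes together held 23.5%, 39.8%, 63.9% and 14.0%, of which Treg-like cells held 11.2%, 23.1%, 27.3% and 6.37% of the library's UMIs. No background was taken off these shares. In blood the T-like classes other than the Treg-like had 4.67 to 18.7 CPM, near or below the 12.9 to 13.9 CPM of the B-like cells used as background, so their part of the UMIs is not shown to be expression.

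**Figure D1:**
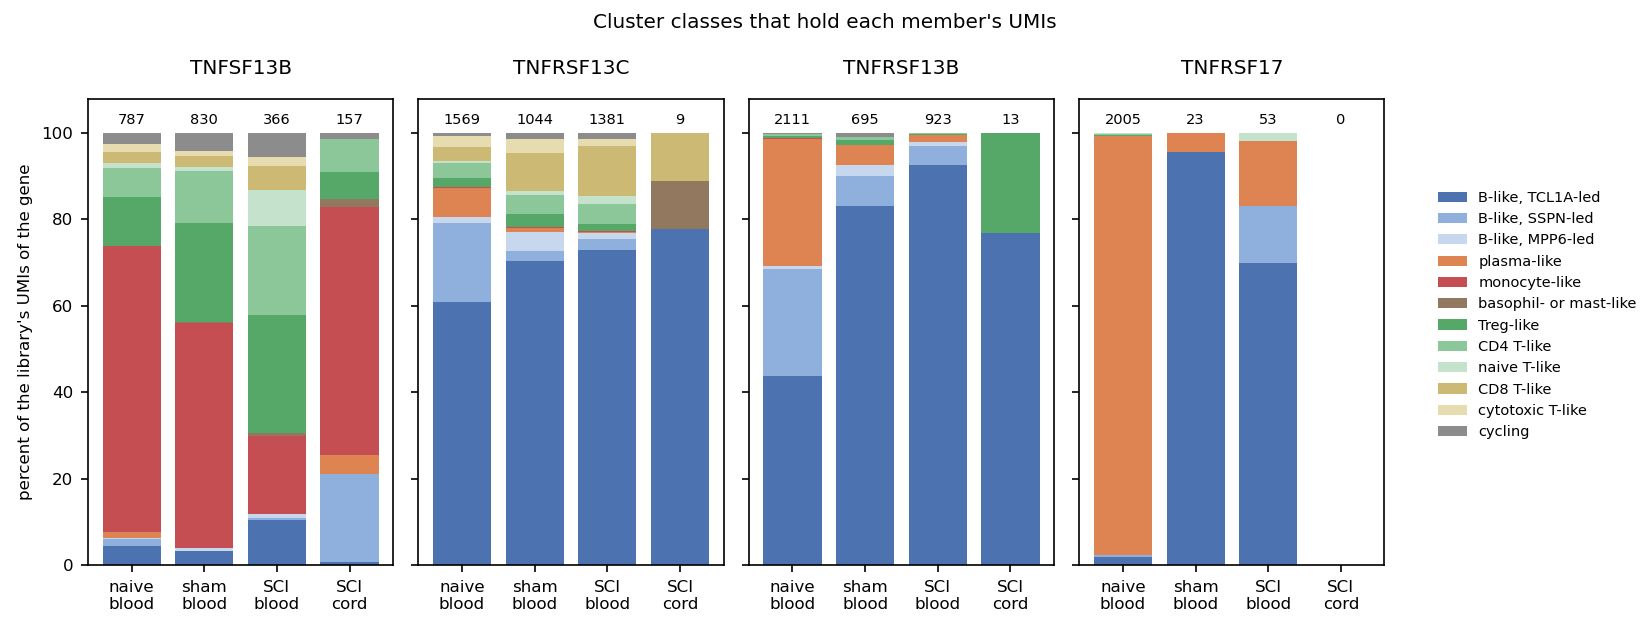
Stacked bars give the percent of each library's UMIs of TNFSF13B, TNFRSF13C, TNFRSF13B and TNFRSF17 found in each cluster class, with the number of UMIs above each bar. Monocyte-like cells hold 66.2% of TNFSF13B UMIs in naive and 18.0% in SCI blood, and plasma-like cells hold 97.0% of TNFRSF17 UMIs in naive blood.

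In cord, 23 cells held the 157 TNFSF13B UMIs. The 7 monocyte-like cells held 90 of them and the highest single cell 21, while 10 UMIs were in 5 of 16 Treg-like, 12 in 4 of 30 CD4 T-like and 3 in 2 of 28 basophil- or mast-like cells. The B-like class held 33 UMIs, which gave it a level of 276 CPM (190 to 388), but 32 of these were in the 2 SSPN-led cells with no B markers. The 7 TCL1A-led B-like cells of cord had 1 UMI, or 15.8 CPM (0.3995 to 87.9), which covers the level in blood B-like cells. Of the cells in the B-like and plasma-like clusters of cord, 3 had UMIs of CD1C (27 to 71 per cell), CLEC10A (19 to 82) and LYZ (237 to 315) and none of MS4A1, and these 3 held 39 TNFSF13B UMIs.

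Library comparisons of TNFSF13B asked whether blood after SCI carried another amount of the ligand's transcript than blood of sham or naive mice, and whether human cells in the injured cord differed from those in blood. Over all cells of naive, sham and SCI blood and cord, the level was 35.9 CPM (33.4 to 38.4), 40.7 CPM (38.0 to 43.6), 17.0 CPM (15.3 to 18.9) and 148 CPM (126 to 173). SCI blood was lowest and cord highest, and among the blood libraries the intervals of naive and sham blood alone overlapped. The log2 ratio was 0.18 (0.04 to 0.32) for sham against naive, −1.07 (−1.26 to −0.89) for SCI against naive and −1.26 (−1.44 to −1.08) for SCI against sham blood. Cord against SCI blood gave 3.12 (2.84 to 3.39), or 8.71-fold more in cord. By UMIs per 100 cells the gap was wider, at 133 in cord and 6.17 in SCI blood. Monocyte-like cells were 5.93% of cells in cord and 0.303% in SCI blood. Given the same class weights in both libraries, the differences for SCI blood shrank to −0.24 against naive and −0.34 against sham, inside the fold of 1 (log2) used here to name a difference.

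Within monocyte-like cells TNFSF13B of SCI blood differed less from naive and sham blood than over all cells. For sham against naive blood the ratio was larger in size and of the other sign than over all cells (0.18). The log2 ratio was −0.28 (−0.47 to −0.09) for sham against naive, −0.84 (−1.24 to −0.48) for SCI against naive and −0.56 (−0.96 to −0.19) for SCI against sham blood. Per 100 cells as above, sham blood was above naive blood and SCI blood close to it, so the order of the libraries turned with the scale. That scale also follows depth per cell, which was lowest in naive blood. At matched depth sham blood was not highest, with shares of 41.0%, 32.6% and 44.4% at 1000 UMIs. At 2000 UMIs they were 65.4%, 60.5% and 55.6%, and at both depths the intervals overlapped. None of the 3 ratios passed the fold, by which 0 of 1 measured member was called in each, against 4.11%, 11.3% and 10.5% of all genes. The SCI value rests on 66 UMIs in 18 cells.

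Within Treg-like cells the ratios had the other sign against naive blood, at 0.76 (0.40 to 1.15) for sham and 0.43 (−0.00 to 0.86) for SCI, and were −0.34 (−0.70 to 0.02) for SCI against sham. Of the members with enough counts in Treg-like cells, 0 of 3, 0 of 2 and 0 of 2 passed the fold in these comparisons, against 2.15%, 2.67% and 2.73% of all genes. That count is by CPM, and per 100 Treg-like cells TNFSF13B was at 7.90, 17.8 and 13.5 UMIs in naive, sham and SCI blood, which puts sham against naive past the fold. In CD8 T-like cells the level in SCI blood was lower than in naive blood (−1.48, −2.44 to −0.53) and sham blood (−1.10, −2.05 to −0.16), on 20 to 22 UMIs per library, where 3.12% and 2.20% of all genes passed the fold. CD4 T-like cells of cord had more of the transcript than those of SCI blood (2.36, 1.29 to 3.19), on 12 UMIs in 4 cells, and Treg-like cells gave 1.11 (−0.06 to 1.98), but 21.7% and 24.8% of all genes passed the fold in these comparisons of cord. Within B-like cells of blood the ratios were 0.03, −0.07 and −0.11 with intervals that included 0.

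TNFRSF13C, the receptor through which BAFF supports mature B cells, had 1569, 1044, 1381 and 9 UMIs in naive, sham and SCI blood and cord. In B-like cells its level was 352 CPM (332 to 371), 339 CPM (316 to 363), 319 CPM (300.5 to 339) and 58.6 CPM (23.6 to 121), the last on 7 UMIs, or 110.5 CPM (44.4 to 228) in the 7 TCL1A-led cord cells alone. The 3 blood libraries were close together by CPM and the cord value was lower with either set of cells, but per 100 TCL1A-led cells cord had 100 UMIs, on 7 UMIs with 3 in 1 cell, beside 97.7, 144 and 114 in naive, sham and SCI blood. B-like cells held 80.6%, 77.2%, 76.8% and 77.8% of the gene's UMIs.

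The B-like clusters differed in TNFRSF13C by less than the fold in most comparisons by CPM. The level was 389, 353 and 328 CPM in TCL1A-led cells of naive, sham and SCI blood, 281, 228 and 189 CPM in SSPN-led cells, and 187, 248 and 288 CPM in MPP6-led cells. By CPM, TCL1A-led cells were highest in each library, whereas by UMIs per 100 cells SSPN-led cells were above them in naive (118 against 97.7) and sham blood (218 against 144). Against TCL1A-led cells the MPP6-led level passed the fold in naive blood alone (−1.02, −1.74 to −0.45), where 22.3% of all genes did. The SSPN-led cluster held 244, 11 and 36 cells, of which 32.4%, 9.09% and 75% were marked as doublets, and general T markers in it summed to 1203, 304 and 2432 CPM (TRAC 400.1, 104 and 636 CPM). In sham blood the cluster also held 3 of 9 monocyte markers at 1994 CPM (LYZ 1633 CPM) and 4 of 5 dendritic markers at 446 CPM (CLEC9A 266 CPM), beside 48.9 and 73.4 CPM in naive and 5.39 and 86.3 CPM in SCI blood. The part of these cells and markers in its receptor levels was not tested.

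Outside B-like cells TNFRSF13C was found in CD8 T-like cells, at 33.6 CPM (25.2 to 43.8), 42.0 CPM (33.8 to 51.5) and 37.3 CPM (31.8 to 43.6) in naive, sham and SCI blood. CD4 T-like cells had 10.6, 6.90 and 11.5 CPM, Treg-like cells 11.1, 8.12 and 9.03 CPM, and cytotoxic T-like cells 26.0, 26.2 and 15.7 CPM. The CD8 T-like level was above that of CD4 T-like cells by a log2 ratio of 1.66 (1.09 to 2.23), 2.60 (2.08 to 3.14) and 1.69 (1.27 to 2.15). In these comparisons 15.3%, 16.8% and 15.9% of all genes passed the fold. T-like cells together held 11.7%, 20.3% and 21.4% of the gene's UMIs. With cells thinned to 1000 UMIs, 2.10%, 2.88% and 2.19% of CD8 T-like and 0.836%, 0.574% and 0.688% of CD4 T-like cells had a UMI, while 20.5%, 20.4% and 18.9% of B-like cells did. Without thinning the shares were 7.34%, 12.6% and 9.92% in CD8 T-like, 2.62%, 2.87% and 3.79% in CD4 T-like and 56.1%, 67.1% and 58.5% in B-like cells.

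TNFRSF13B, the receptor for both ligands, had 2111, 695, 923 and 13 UMIs. In B-like cells it was at 406 CPM (385 to 427), 271 CPM (250.4 to 293), 272 CPM (255 to 290.5) and 83.8 CPM (40.2 to 154) in the order naive, sham and SCI blood and cord, or, for cord, 158 CPM (75.7 to 290.2) in the 7 TCL1A-led cord cells alone. By CPM naive blood was highest and sham and SCI blood did not differ beyond counting error, but per 100 TCL1A-led cells cord had 143 UMIs beside 94.5, 113 and 97.0 in naive, sham and SCI blood. That cord value rests on 1 cell, which held 7 of the 10 UMIs in the 7 cells. T-like cells had 1.81, 0.966 and 0.323 CPM in the blood libraries. Thinned to 1000 UMIs, 22.8%, 15.1% and 14.8% of B-like cells and 0.189%, 0.0541% and 0.0215% of T-like cells had a UMI of the gene, and without thinning 51.0%, 42.4% and 43.0% against 0.496%, 0.379% and 0.108%. The median depth of T-like cells was 3514.5, 5044.5 and 4553.5 UMIs, close to that of B-like cells in each library.

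TNFRSF13B also varied among the B-like clusters. SSPN-led cells had 515 CPM (472 to 560.5), 465 CPM (344 to 615) and 221 CPM (159 to 299.95) in naive, sham and SCI blood, TCL1A-led cells 376, 277 and 279 CPM, and MPP6-led cells 85.1, 94.97 and 115 CPM. MPP6-led cells were lowest in every blood library, at log2 ratios of −2.07, −1.51 and −1.19 to TCL1A-led cells. In these comparisons 22.3%, 17.4% and 28.0% of all genes passed the fold. By CPM the SSPN-led cells were above TCL1A-led cells in naive (0.45) and sham blood (0.76) and below them in SCI blood (−0.32), whereas per 100 cells they were above in all 3, with 216, 445 and 114 UMIs. Without cells marked as doublets, SSPN-led cells had 719.99, 497 and 754 CPM on 165, 10 and 9 cells, so that their place in SCI blood turned. In naive blood the SSPN-led cluster held 24.9% of the gene's UMIs, and TNFRSF13B was the last of the cluster's 10 leading genes although it had been held out of clustering.

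A finer clustering divided the B-like cells further by TNFRSF13B. Cells led by LINC01857 had 475 CPM (442 to 509), 411 CPM (370 to 455) and 374 CPM (344 to 405) and were 53.1%, 39.4% and 49.9% of B-like cells in naive, sham and SCI blood. Cells led by HRK, with TCL1A among their leading genes, had 146, 171 and 164 CPM and were 29.2%, 50% and 46.6%. For TNFRSF13C the same clusters had 438, 389 and 368 CPM and 263, 326 and 273 CPM.

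TNFRSF17, the receptor of antibody-secreting cells, had 2005, 23 and 53 UMIs in naive, sham and SCI blood and 0 in cord (upper limit 2.83 CPM). In B-like cells its level was 13.1 CPM (9.60 to 17.4), 9.26 CPM (5.80 to 14.0) and 13.2 CPM (9.63 to 17.8) in the blood libraries and 0 in cord (upper limit 25.1 CPM). The blood values overlapped, and T-like cells were lower, at 1.12 CPM (0.596 to 1.91), 0 (upper limit 0.207 CPM) and 0.0646 CPM. Of 122 MPP6-led cells in blood, 51 naive, 48 sham and 23 SCI cells, none had a TNFRSF17 UMI, which allows up to 25.5, 15.8 and 43.3 CPM and so shows no difference from the B-like levels. SSPN-led cells of SCI blood were above TCL1A-led cells past the fold (1.73, 0.24 to 2.83), at 37.7 and 12.1 CPM on 7 and 37 UMIs, in a comparison where 18.5% of all genes passed it. Without cells marked as doublets, 9 of these 36 SSPN-led cells and 1 UMI were left (23.6 CPM, 0.597 to 131), an interval that covers the TCL1A-led level. B-like cells held 2.34% of the gene's UMIs in naive blood but 95.7% in sham and 83.0% in SCI blood, where plasma-like cells were few.

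Plasma-like cells of naive blood had 456 CPM of TNFRSF17 (436 to 477) and held 1945 of its UMIs, 97.0% of those in the library. A plasma-like cell had a median of 4 UMIs of the gene and at most 20, and 348 of 379 cells had one. TNFRSF17 was the first of the cluster's leading genes, although it too had been held out of clustering. The cells of this cluster elsewhere added little, with 1 UMI in sham blood and 8 in SCI blood, all in 1 of 4 cells. The 2 sham cells also had 31 TNFRSF13B UMIs (30 in 1 cell) and 9 TNFRSF13C UMIs, the 4 SCI cells had 14 and 4, and the 2 cord cells had none of the 3 receptors.

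**Figure D2:**
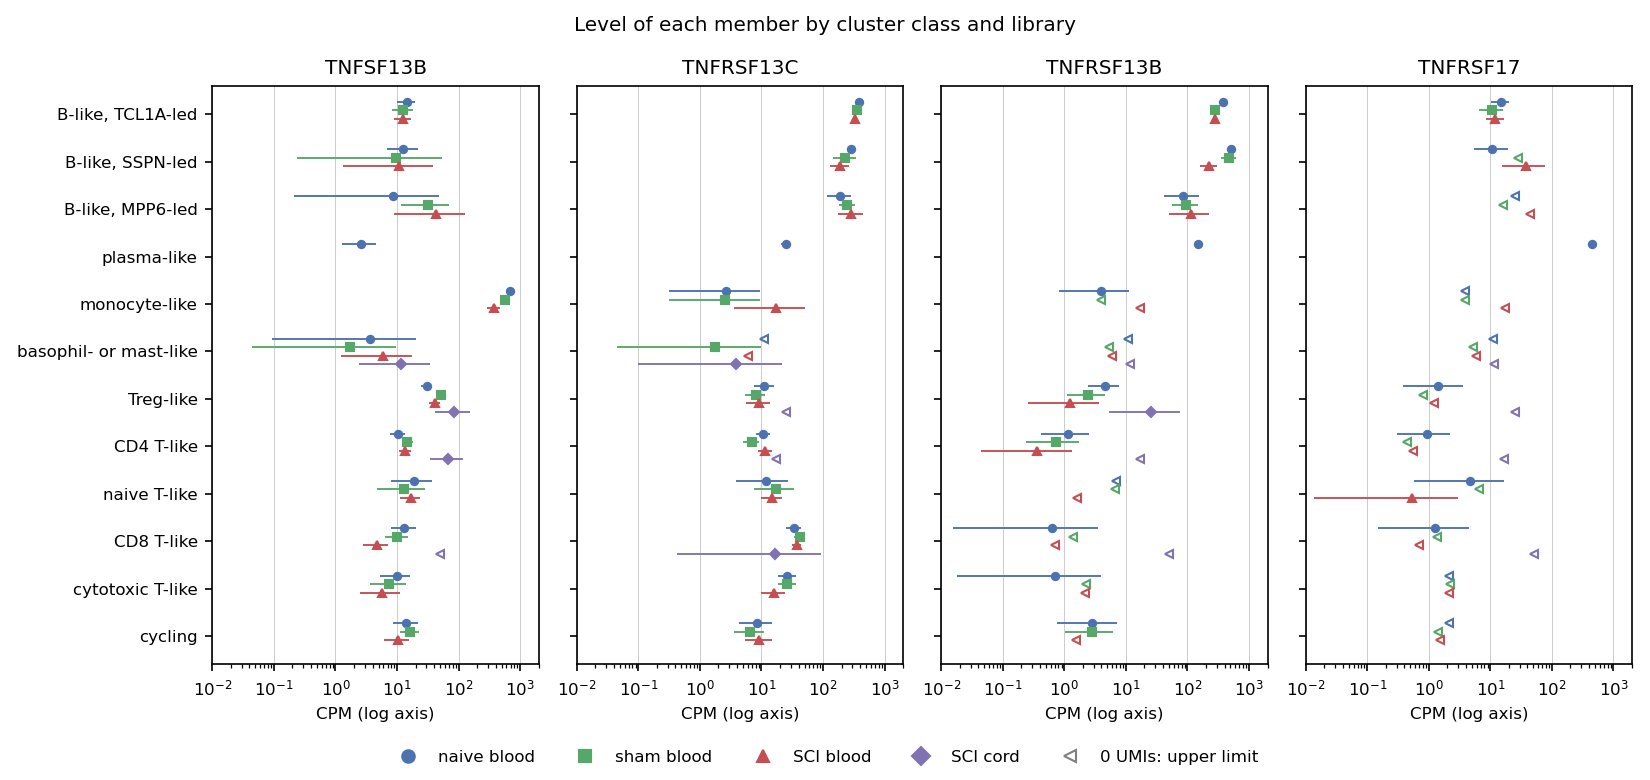
Points give the level of each member (CPM, log axis) by cluster class and library, with bars for exact 95% counting intervals and open triangles for upper limits at 0 UMIs; class and library pairs with under 10 cells are not drawn. TNFSF13B is highest in monocyte-like cells and TNFRSF17 in plasma-like cells, and TNFRSF13B in plasma-like cells lies below B-like cells on this scale but above them in UMIs per cell.

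The comparison of plasma-like with B-like cells within naive blood describes the receptor switch that goes with antibody secretion, on 379 and 1272 cells at median depths of 12631 and 3671 UMIs. Of the members with enough counts, 4 of 4 passed the fold, where 46.1% of all genes did and the median of all genes was −0.66, so passing it set the members little apart. Immunoglobulin genes took 29.7% of UMIs in plasma-like and 2.41% in B-like cells, which lowers the CPM of every other gene in plasma-like cells.

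TNFRSF13C was at 25.1 CPM (20.5 to 30.3) in plasma-like and 352 CPM in B-like cells, 14.0-fold lower (log2 ratio −3.80, −4.11 to −3.52). TNFRSF17 was 34.5-fold higher in plasma-like cells (5.11, 4.71 to 5.57), and TNFSF13B was 5.11-fold lower by CPM (−2.35, −3.50 to −1.44) but inside the fold by UMIs per 100 cells (2.90 and 3.85). TNFRSF13B, at 146 CPM (135 to 158) in plasma-like cells, was 2.77-fold lower by CPM (−1.47, −1.61 to −1.34) but higher by UMIs per cell (0.52), with 165 UMIs per 100 plasma-like and 115 per 100 B-like cells. With immunoglobulin genes left out of the total, its log2 ratio was −0.998, just inside the fold. The directions of TNFRSF13C and TNFRSF17 held by UMIs per cell, at −1.81 and 7.10. With cells classed by marker UMIs in place of clusters, the TNFRSF17 ratio fell to 3.37, a smaller difference than between clusters.

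Set against each B-like cluster by CPM, the receptor ratios of plasma-like cells were −3.95 for TNFRSF13C, −1.36 for TNFRSF13B and 4.94 for TNFRSF17 to TCL1A-led cells, and −3.48, −1.82 and 5.34 to SSPN-led cells. Against MPP6-led cells TNFRSF13C was lower (−2.93) and TNFRSF13B was not (0.71, −0.11 to 1.85). Per 100 cells, the 165 TNFRSF13B UMIs of plasma-like cells stood beside 94.5 in TCL1A-led, 216 in SSPN-led and 19.6 in MPP6-led cells, so the direction turned with the scale against TCL1A-led cells but not against SSPN-led cells.

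At a matched depth of 1000 UMIs, 29.6% of plasma-like cells had a TNFRSF17 UMI, against 0.943%, 0.352% and 1.17% of B-like cells in naive, sham and SCI blood and 0.0709% of T-like cells in naive blood. For TNFRSF13B the thinned share was 9.23% in plasma-like cells, below the 22.8% of B-like cells, and for TNFRSF13C it was 2.11%, against 1.25% in T-like cells. Without thinning, 91.8% of plasma-like cells had a TNFRSF17 UMI, 60.9% a TNFRSF13B UMI and 20.1% a TNFRSF13C UMI. The unthinned TNFRSF17 shares of B-like cells were 3.38%, 3.52% and 4.15%, with 0.307% in T-like cells of naive blood, and T-like cells had an unthinned TNFRSF13C share of 3.85%.

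Read cell by cell, the receptors were often found together. Of 379 plasma-like cells, 176 (46.4%) had UMIs of TNFRSF13B and TNFRSF17, 105 (27.7%) of TNFRSF17 alone, 39 (10.3%) of all 3 receptors and 28 (7.39%) of TNFRSF13C and TNFRSF17. The remaining cells had none of the 3 (11 cells), TNFRSF13B alone (11), TNFRSF13C and TNFRSF13B (5) or TNFRSF13C alone (4).

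TCL1A-led B-like cells had other combinations. Of 977 in naive blood, 270 (27.6%) had TNFRSF13C alone, 256 (26.2%) TNFRSF13C and TNFRSF13B, 188 (19.2%) TNFRSF13B alone and 229 (23.4%) none, while 34 had TNFRSF17. In sham blood the first 4 groups were 178, 154, 61 and 96 of 509 cells, and in SCI blood 274, 219, 149 and 205 of 881. In naive blood, 112 of 244 SSPN-led cells (45.9%) had both TNFRSF13C and TNFRSF13B. Of the 7 TCL1A-led cells in cord, 3 had TNFRSF13C alone, 1 had TNFRSF13B alone, 1 had both and 2 had none.

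These counts follow depth, and plasma-like cells were the deepest. With cells thinned to 1000 UMIs, a UMI of any receptor was found in 39.9%, 34.6% and 31.3% of TCL1A-led cells in naive, sham and SCI blood, 39.3% of SSPN-led cells and 37.7% of plasma-like cells in naive blood. TNFRSF13C and TNFRSF17 were then found together in 2, 1 and 1 TCL1A-led cells and in 3 plasma-like cells.

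**Figure D3:**
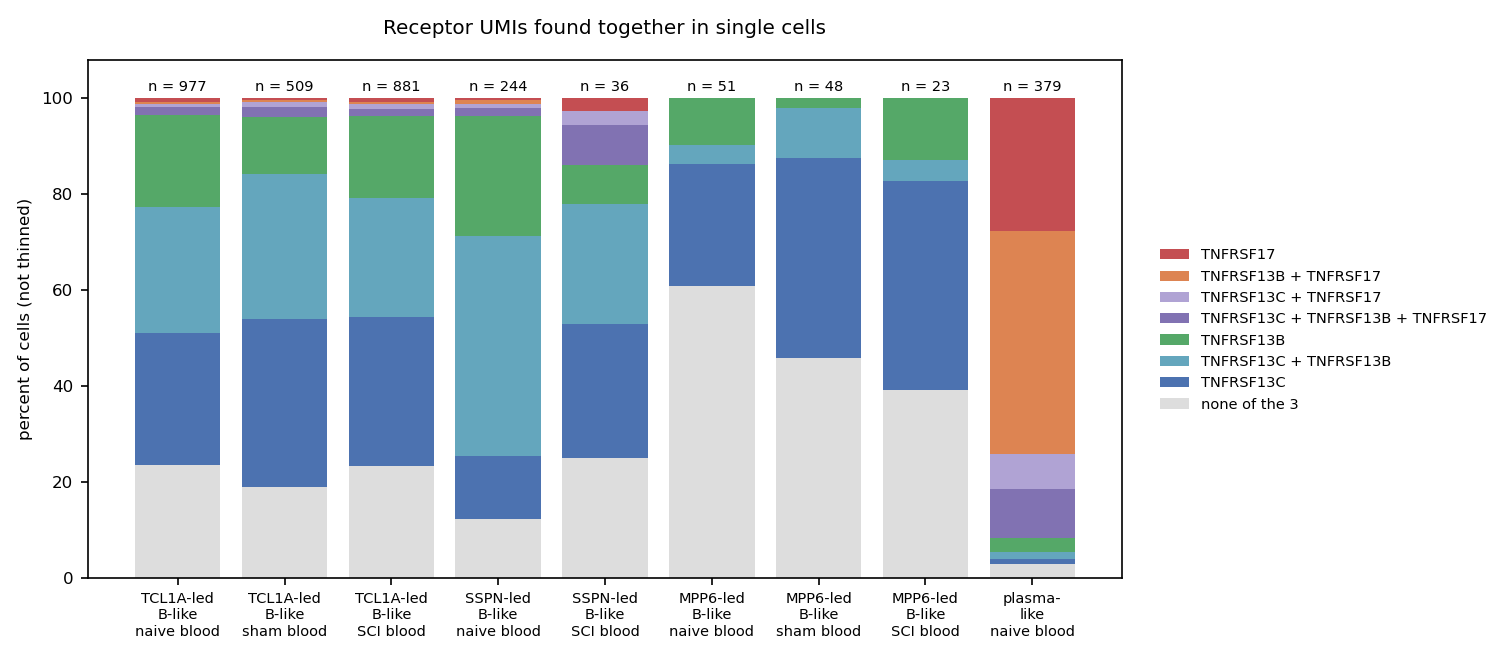
Stacked bars give the percent of cells with UMIs of TNFRSF13C, TNFRSF13B and TNFRSF17, alone or together, by cluster and blood library, without thinning and with the number of cells above each bar. TNFRSF13B with TNFRSF17 is the most frequent state of plasma-like cells (46.4%), and TNFRSF13C with or without TNFRSF13B that of TCL1A-led cells.

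Library comparisons of the receptors asked whether B-like cells of injured or operated mice carried another receptor level than those of naive mice. Over all B-like cells, 0 of 4 members passed the fold in sham against naive, SCI against naive and SCI against sham blood, against 3.42%, 3.39% and 3.26% of all genes. In TCL1A-led cells alone, a comparison chosen after seeing the data, it was again 0 of 4 in each, against 1.67%, 2.81% and 2.59%.

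For TNFRSF13B the log2 ratio within B-like cells was −0.58 (−0.72 to −0.45) for sham against naive, −0.58 (−0.70 to −0.46) for SCI against naive and 0.01 (−0.14 to 0.15) for SCI against sham blood. In TCL1A-led cells the ratios were −0.44, −0.43 and 0.01 by CPM but 0.26 and 0.039 for the first 2 of these by UMIs per cell. Under the finer clustering they turned to 0.22 and 0.16, with intervals that included 0. These values belong to the HRK-led cells alone, while the LINC01857-led cells of the same clustering kept naive blood highest by CPM (475, 411 and 374 CPM), though not by UMIs per cell. By UMIs per cell, B-like cells gave −0.016, −0.25 and −0.24. UMIs per cell also follow depth, which was lowest in naive blood. Thinned to 1000 UMIs, 21.6%, 16.1% and 14.6% of TCL1A-led cells in naive, sham and SCI blood had a TNFRSF13B UMI. Naive blood was therefore highest by CPM and by depth-matched share, while by UMIs per cell its lead shrank or turned. At the finer clustering its place depended on the cluster.

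TNFRSF13C within B-like cells gave −0.05 (−0.18 to 0.08), −0.14 (−0.26 to −0.02) and −0.09 (−0.22 to 0.05) in the same order by CPM, and 0.51, 0.18 and −0.33 by UMIs per cell, so that both comparisons with naive blood changed sign. TNFRSF17 within B-like cells gave −0.48, 0.02 and 0.50 with intervals that included 0, on 47, 22 and 44 UMIs in naive, sham and SCI blood.

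Over all cells the receptors differed more between libraries, beside the share of the classes that carry them. TNFRSF13C was at 71.5 CPM (68.0 to 75.1), 51.2 CPM (48.1 to 54.4), 64.2 CPM (60.9 to 67.7) and 8.48 CPM (3.88 to 16.1). TNFRSF13B was at 96.2 CPM (92.1 to 100.4), 34.1 CPM (31.6 to 36.7), 42.9 CPM (40.2 to 45.8) and 12.3 CPM (6.53 to 21.0), and TNFRSF17 at 91.3 CPM (87.4 to 95.4), 1.13 CPM (0.715 to 1.69), 2.46 CPM (1.85 to 3.22) and 0 in cord. All 3 receptors were highest in naive blood, and TNFRSF13C and TNFRSF13B were lowest in cord, where the upper limit of TNFRSF17 (2.83 CPM) covers its levels in sham and SCI blood.

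Of the members, 2 of 4 passed the fold for sham against naive blood, against 4.94% of all genes, 3 of 4 for SCI against naive blood (7.67%) and 2 of 4 for SCI against sham blood (5.09%), with TNFSF13B among the called members in both comparisons of SCI blood. As a mean of per-cell CPM, TNFSF13B of SCI against naive blood was inside the fold (−0.89). TNFRSF17 gave −6.31 (−7.00 to −5.75), −5.20 (−5.63 to −4.82) and 1.11 (0.40 to 1.90), so naive blood was 79.3-fold and 36.7-fold higher than sham and SCI blood. The call for SCI against sham blood rests on 53 and 23 UMIs, with 8 of the 53 in 1 cell of the plasma-like cluster, and is inside the fold by UMIs per 100 cells (0.893 and 0.495) and within B-like cells (0.50). TNFRSF13B gave −1.50 (−1.62 to −1.37), −1.16 (−1.28 to −1.05) and 0.33 (0.19 to 0.48). TNFRSF13C gave −0.48 (−0.60 to −0.37), −0.15 (−0.26 to −0.05) and 0.33 (0.21 to 0.44), none past the fold.

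With the same class weights in both libraries, TNFRSF13B came to −0.29, −0.52 and −0.015, TNFRSF13C changed sign for sham against naive (0.015) and SCI against sham (−0.067), and TNFRSF17 shrank to −3.08 and −1.58 against naive blood. These receptor values against naive blood lean in part on the 2 and 4 cells of the plasma-like cluster in sham and SCI blood, where 1 cell held 30 of 31 TNFRSF13B UMIs in sham and another all 8 TNFRSF17 UMIs in SCI blood. As a mean of per-cell CPM, TNFRSF17 gave −4.45 and −3.76. By UMIs per cell, TNFRSF13C and TNFRSF13B of SCI against sham blood came to 0.049 and 0.055.

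For cord against SCI blood, 3 of 3 members with enough counts passed the fold over all cells, against 23% of all genes. TNFSF13B was higher in cord, as given above, and TNFRSF13C (−2.84, −4.05 to −1.99) and TNFRSF13B (−1.75, −2.72 to −1.03) were lower. By UMIs per 100 cells TNFRSF13C was at 7.63 in cord and 23.3 in SCI blood, a smaller gap than by CPM but still past the fold. On the same scale TNFRSF13B was at 11 in cord and 15.6 in SCI blood, inside the fold, and 1 cord cell held 7 of the 13 cord UMIs of TNFRSF13B. The cord values rest on 118 cord cells, 9 of them in B-like clusters, and on 9 and 13 UMIs of the receptors. TNFRSF17 was at 0 in cord beside 2.46 CPM in SCI blood, which is under the limit that 0 UMIs allow in cord.

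The other genes of the pathway were taken from 6 lists of 44 genes, and 42 of them had enough counts to compare plasma-like with B-like cells of naive blood by CPM. Of these, 6 were higher and 22 lower past the fold, where 9.13% and 37.0% of all genes were, with a median log2 ratio of −1.15 against −0.66 over all genes. The counts by list below are to be read against these shares over all genes. By UMIs per cell every ratio of this comparison is higher by the step from −1.47 to 0.52 seen for TNFRSF13B. That step turns the sign of the smaller decreases below and changes the counts past the fold, which are given by CPM. The 8 genes that process the ligands and shed the receptors had a median of −0.70, with ADAM17 at −1.40. Among the neighbouring ligand and the proteoglycans that hold APRIL, 2 of 4 genes could be compared, TNFSF12 at −6.27 (−9.64 to −4.71, on 2 and 162 UMIs) and SDC1, which had 51 UMIs in plasma-like cells (11.95 CPM) and 0 in B-like cells (upper limit 0.834 CPM).

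The 8 receptor adaptors and regulators had 0 higher and 5 lower and a median of −1.15. BIRC3 (−5.08), TRAF5 (−4.60) and TRAF1 (−2.90) were lowest, beside CAMLG (−1.20), which encodes a partner of TACI, and TRAF6 (−1.10). By UMIs per cell BIRC3 and TRAF5 alone of these 5 stay lower past the fold, and the list's median turns positive. The 9 NF-kB kinases and subunits had 0 higher and 6 lower and a median of −1.30. Among them MAP3K14, the kinase downstream of the BAFF receptor, was at −2.45, its product's target subunit NFKB2 at −1.88 and REL at −3.59, with IKBKB (−1.98), NFKB1 (−1.30) and IKBKG (−1.28). By UMIs per cell REL alone of these 6 stays lower past the fold, and the list's median turns positive.

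The 6 survival targets had 2 higher and 2 lower and a median of 0.51. MCL1, the survival factor that BCMA maintains in plasma cells, was at 0.06, BCL2 at −3.49, BCL2A1 at −3.76 and BCL2L1 at 0.97, and BCL2L11, which encodes the death factor BIM, was higher (2.27), as was PIM2 (1.12). By UMIs per cell MCL1 and BCL2L1 are also higher past the fold. The 9 regulators of B cell and plasma cell identity had 3 higher, PRDM1 (4.95), XBP1 (4.94) and IRF4 (1.485), and 6 lower, SPIB (−6.65), IRF8 (−6.05), EBF1 (−4.61), BACH2 (−4.24), PAX5 (−4.02) and BCL6 (−2.97), with a median of −4.02. PAX5, PRDM1, XBP1, IRF4 and SDC1 also stood in the marker lists, so their direction was in part fixed by the class names.

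Between libraries, within TCL1A-led cells, 0 of 40 pathway genes with enough counts passed the fold in each of the 3 blood comparisons, where 1.67%, 2.81% and 2.59% of all genes did, so the counts say nothing particular to the pathway. They had medians of −0.02 for sham against naive, 0.01 for SCI against naive and 0.02 for SCI against sham blood, beside −0.01, −0.02 and −0.01 over all genes. SSPN-led against TCL1A-led cells of naive blood had 2 genes higher (TRAF1 1.36 and BCL2A1 1.57) and 3 lower of 40, near the 4.92% and 5.30% of all genes, with a median of −0.15 beside −0.03 over all genes.

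The genes most like each member were sought by Pearson correlation of log2(CPM + 10) over 35 points, each a cluster in a blood library, among 10959 genes. The points share libraries, and the coefficients describe these clusters only. TNFSF13B was most like IL1R2 (0.909), CLEC7A (0.908), CSF3R (0.897), TGFBI (0.897) and VCAN (0.896). TNFRSF13C was most like CD79A (0.968), E2F5 (0.960), CYB561A3 (0.949), RALGPS2 (0.947) and BLK (0.943).

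TNFRSF13B was most like CPNE5 (0.992), PNOC (0.984), OSBPL10 (0.976), DENND5B (0.965) and BLNK (0.964), and TNFRSF17 most like DERL3 (0.897), HRASLS2 (0.864), ALDH1L2 (0.855), PKHD1L1 (0.8499) and UBE2J1 (0.846). Among the members, TNFRSF13C and TNFRSF13B were most alike (0.891), TNFRSF13B and TNFRSF17 less (0.578) and TNFRSF13C and TNFRSF17 least of the receptors (0.305). TNFSF13B gave −0.149, −0.0865 and −0.204 with TNFRSF13C, TNFRSF13B and TNFRSF17.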

How the data were processed

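The authors deposited the count of UMIs of each gene in each cell barcode, made with Cell Ranger 3.1.0 on a combined human (hg38) and mouse (mm10) reference without normalisation. Barcodes with over 50% human UMIs were kept within 3 MADs for UMIs, genes, mitochondrial and ribosomal share; Scrublet scores up to 0.8% per 1000 barcodes marked doublets, removed above 3000 genes. Clusters came from 2000 variable genes, 30 components, 15 neighbours and Leiden at resolution 0.8 (finer 1.5), in Python 3.11.15 with scanpy 1.11.5, numpy 2.4.6, scipy 1.17.1, pandas 2.3.3, scikit-learn 1.9.0 and igraph 0.11.9; TMM factors came from edgeR 4.0.16. Classes were named from at least 3 markers in at least 10% of cells. Summed CPM had exact Poisson intervals. Log2 ratios used 0.5 added counts, conditional binomial intervals, at least 20 counts and at least 10 cells per class; shares had Clopper-Pearson intervals. The fold was an absolute log2 ratio of 1. Alternatives changed filters, scaling, clustering and thinning. Named genes were the members, 44 pathway genes and the 5 most correlated genes per member. Only the log2 ratios and their intervals were tested on simulated data, with Poisson counts drawn from whole-library totals. Filters, clustering, class names and thinning were not. The members and lists were chosen with earlier results of these data known.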

Additional observations from a re-analysis of the deposited data

Results flagged for a closer look

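Barcodes with over 50% of their UMIs on mouse genes were not used for the comparisons of human genes, and mouse counterparts of 3 members had more UMIs there than the 3 that a count of 0 allows. Their levels are CPM over mouse genes in host cells that passed with the sorted human cells, and no explanation was tested.

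Tnfrsf13b was at 1.77 CPM in naive blood, 19.2 CPM in sham blood, 10.2 CPM in SCI blood and 70.9 CPM in cord, where 64 of 93 mouse barcodes had a UMI of it. Tnfsf13b was at 34.6 CPM in sham blood, 21.8 CPM in SCI blood and 18.3 CPM in cord, on 191, 62 and 38 UMIs, with 1 UMI in naive blood. Tnfrsf17 was at 3.38 CPM in cord, on 7 UMIs in 6 barcodes. Tnfsf13 had at most 1 UMI in each library, and Tnfrsf13c had 0, 1, 1 and 0.

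The mouse barcodes of the 4 libraries were of different make-up and depth. Haemoglobin transcripts were high in all 3 blood libraries, with Hbb-bs at 438949, 119107 and 169392 CPM and Hba-a1 at 295724, 84889 and 116630 CPM in naive, sham and SCI blood, where S100a9 was at 1890.0, 62329.7 and 60052 CPM, and cord had Csf1r at 1161 and Cx3cr1 at 1157 CPM. The median was 2048, 2029.5, 1816.5 and 26533 mouse UMIs per barcode. The part of these differences in the levels above was not tested.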

How the results depend on the processing

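Of 439 alternative values of the 53 main results, 352 stayed within the counting interval of the reported value (or, for counts of genes, within 1.5 times), 82 moved further and 5 changed sign from a value whose interval left out 0. Of 99 alternative values of 9 further results, 85 stayed, 8 moved and 6 changed sign. All compared values stayed with 1 count added (3 of 3), TMM factors (12 of 12), at least 90% human UMIs (48 of 48), scaling over all libraries (36 of 36) and members allowed among the variable genes (36 of 36). Values also stayed in 46 of 48 without the MAD filter and 35 of 36 at resolution 0.4. No paired analysis was possible because each group had 1 library.

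With CPM over all human genes, 31 of 48 stayed. Levels fell because the total grew: TNFRSF13B to 285, 187 and 179 CPM in B-like cells of naive, sham and SCI blood and 117 CPM in plasma-like cells, TNFRSF13C to 247, 234 and 209.6 CPM and 20.0 CPM, TNFRSF17 to 9.19 and 8.69 CPM in B-like cells of naive and SCI blood and 364 CPM in plasma-like cells, and TNFSF13B to 585 and 486 CPM in monocyte-like cells of naive and sham blood. For SCI against naive blood over all cells TNFRSF13B came to −1.28 and TNFRSF13C to −0.27. Plasma-like against B-like TNFRSF13B came to −1.29, and TNFSF13B in monocyte-like against other cells of sham blood to 5.03. The cause of these shifts was not tested further.

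By UMIs per cell, an alternative chosen after seeing the data, 9 of 33 stayed, and depth per cell differed between libraries and classes. Sign changes from values whose interval left out 0 were TNFRSF13B in plasma-like against B-like cells (0.52), TNFRSF13C in B-like cells of SCI against naive blood (0.18), and, in TCL1A-led cells, TNFRSF13C of SCI against naive (0.22) and TNFRSF13B of sham against naive (0.26) and SCI against naive blood (0.039). In plasma-like against B-like cells TNFRSF13C came to −1.81 and TNFRSF17 to 7.10. For sham against naive, SCI against naive and SCI against sham blood, TNFRSF13B in B-like cells came to −0.016, −0.25 and −0.24. TNFRSF13C in B-like cells came to 0.51 for sham against naive and −0.33 for SCI against sham blood. Among these, the sham against naive value of TNFRSF13C and the SCI against sham value of TNFRSF13B also changed sign, from values whose interval included 0, as did in TCL1A-led cells TNFRSF13C of sham against naive (0.56) and TNFRSF13B of SCI against sham blood (−0.22). Over all cells, sham against naive and SCI against sham blood came to −1.16 and 0.055 for TNFRSF13B, −0.14 and 0.049 for TNFRSF13C, and 0.52 and −1.53 for TNFSF13B. Monocyte-like against other cells, TNFSF13B came to 6.44, 5.85 and 6.18.

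With the same class weights, 3 of 12 stayed. TNFRSF13C changed sign for sham against naive (0.015) and SCI against sham blood (−0.067), and TNFRSF13B for SCI against sham blood (−0.015). TNFRSF13B came to −0.29 for sham and −0.52 for SCI against naive blood, TNFRSF17 to −3.08 and −1.58, and TNFSF13B to −0.24 for SCI against naive and −0.34 for SCI against sham blood. The receptor values against naive blood lean in part on 2 and 4 plasma-like cells of sham and SCI blood, where 1 cell held 30 of 31 TNFRSF13B UMIs in sham and another all 8 TNFRSF17 UMIs in SCI blood. The part of these cells was not tested apart.

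As a mean of per-cell CPM, 38 of 48 stayed. TNFRSF13B in B-like cells came to 381, 239 and 245 CPM and TNFRSF17 in plasma-like cells to 479 CPM. Over all cells, sham and SCI against naive blood came to −0.65 and −0.37 for TNFRSF13C and −4.45 and −3.76 for TNFRSF17, and TNFSF13B to −0.89 for SCI against naive and −1.02 for SCI against sham blood. The cause was not tested.

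With immunoglobulin genes left out of the total, 42 of 48 stayed. In plasma-like cells TNFRSF13B, TNFRSF13C and TNFRSF17 rose to 208, 35.7 and 649 CPM, and against B-like cells they came to −0.998, −3.33 and 5.58, through the smaller total.

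With all marked doublets removed, 47 of 48 stayed, and TNFRSF13B in B-like cells of naive blood came to 437 CPM. With classes from marker UMIs, 19 of 21 stayed, TNFRSF17 in B-like cells of naive blood came to 43.7 CPM and in plasma-like against B-like cells to 3.37. At resolution 1.5, 31 of 36 stayed, and in the cells then led by HRK, set against the TCL1A-led cells, TNFRSF13B changed sign for sham (0.22) and SCI (0.16) against naive blood and TNFRSF13C for SCI against naive blood (0.056), as did TNFRSF13C for sham against naive blood (0.31), from an interval that included 0. The LINC01857-led B-like cells kept TNFRSF13B highest in naive blood by CPM (475, 411 and 374 CPM), though not by UMIs per cell. The cause was not tested for these.

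With no filter on counts, 4620 genes passed the fold for sham against naive, 5143 for SCI against naive and 4648 for SCI against sham blood, since genes with few counts entered. Shares of cells rose with depth. Thinned to 2000 UMIs, where 1 of 11 stayed, TCL1A-led cells of naive, sham and SCI blood had TNFRSF13C shares of 39.2%, 35.0% and 33.2% and TNFRSF13B shares of 32.8%, 22.6% and 22.9%. Monocyte-like cells of naive and sham blood then had TNFSF13B shares of 65.4% and 60.5%, and plasma-like cells had 47.9% for TNFRSF17 and 18.3% for TNFRSF13B. Without thinning these were 56.1%, 68.4% and 58.6%, then 47.4%, 44.6% and 43.7%, then 87.1%, 94.2% and, in SCI blood, 100%, and 91.8% and 60.9%.

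The TCL1A-led cluster alone was also an alternative chosen after seeing the data. Classes from marker UMIs could not be run for TCL1A-led, monocyte-like and Treg-like results, since the rule covers B and plasma cells only. Few UMIs or cells limit what can be said of TNFSF13 in every library, the receptors in cord (9 B-like cells), TNFSF13B in monocyte-like cells of SCI blood (18 cells) and the plasma-like cells outside naive blood (2, 4 and 2 cells). The cause of the few TNFSF13 UMIs was not tested. Pooled animals and 1 library per group leave library and condition impossible to tell apart, and host sex too where SCI is compared with naive or sham. Intervals cover counting error only. Transcript levels say nothing of receptor protein or secreted ligand, which were not measured.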
